A study of Mus musculus with 4 samples.

Results

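The distal convoluted tubule and its WNK kinase pathway were followed through 10 genes in kidney RNA of Th3 mice, a mouse model of beta-thalassemia, and of control mice. The genes were taken by name: Slc12a3, the thiazide-sensitive sodium-chloride cotransporter, Pvalb, Calb1, Trpm6, Trpv5 and Egf of the distal tubule, and Wnk1, Wnk4, Stk39 and Klhl3 of the pathway that controls the cotransporter. A probe was assigned to a gene by its RefSeq accession or, where that failed, by its array name or a RefSeq synonym. All 10 were among the 17628 genes tested, out of 27573 genes on the array.

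In Th3 mice both adult beta-globin genes, beta-major and beta-minor, are deleted, per the labels. The controls are labelled only as control strain, and age, sex, zygosity and genetic background are not given in the sources used here. Each of 4 Agilent arrays carried RNA of 1 Th3 kidney sample against 1 control kidney sample, with Th3 in the red dye Cy5 on arrays 1 and 2 and in the green dye Cy3 on arrays 3 and 4. The design text counts 4 mutants and 4 controls, but nothing says that each RNA came from a mouse of its own. The p-values therefore rest on the spread between these arrays, not on a known number of mice. That spread is taken after a dye term, with a variance shared in part over all genes. As a check of the labels, Hbb-bt, an adult beta-globin gene, was lower in Th3 on all 4 arrays, with a mean log2 ratio of -3.56.

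The distal convoluted tubule is the short nephron segment after the thick ascending limb. It reabsorbs sodium chloride through Slc12a3 and recovers filtered magnesium through Trpm6 and, together with the connecting tubule, calcium through Trpv5. WNK kinases activate the kinase SPAK, which Stk39 encodes, and SPAK phosphorylates and activates Slc12a3. Klhl3 hands WNK kinases to a cullin 3 ubiquitin ligase for degradation, and mutations of KLHL3, CUL3, WNK1 or WNK4 cause familial hyperkalemic hypertension in humans. Both Slc12a3 activity and WNK abundance are set largely at the protein level, which these RNA measurements do not reach.

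Each gene was read by 60-base probes, and the ratios below are those of single probes. The first 30 bases of the probes for the 4 genes that fell and for Slc12a3 are shown, since each of their values rests on 1 probe sequence. They run 5′ to 3′ in the sense of the transcript, and their positions, on mouse build mm8, are those of the array annotation. Whether a probe lies in coding sequence or in an untranslated region was not determined here.
Klhl3, minus strand of chr13:58010076-58010135: cttctttgaaagaaaacccaaggcatggaa
Pvalb, minus strand of chr15:78018472-78018531: gtgatggatcgtccatcttaaagatacaga
Trpv5, minus strand of chr6:41582593-41582652: gaagagagctgctttgcaagagtttgaatt
Egf, minus strand of chr3:129669930-129669989: ataaatgatgtgatctacatagaagtctta
Slc12a3, plus strand of chr8:97240865-97240924: gcaggctagcaccatcttccagtcggagca
The Klhl3 probe carries the clone name 7530408C15Rik on the array and was assigned to Klhl3 only because the RefSeq table lists that name as a synonym. Its value is therefore that of a clone placed at Klhl3, and whether the clone lies within a Klhl3 exon was not determined.

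Of the 10 genes, Klhl3, Pvalb, Egf and Trpv5 fell in Th3 kidney, none rose, and Slc12a3, Wnk1, Wnk4, Stk39, Calb1 and Trpm6 did not pass the test. The falls were modest, to between 66.9% and 81.1% of the control level. The test was a limma fit of the log2 ratio of Th3 over control with a dye term, called at an adjusted p under 0.05 over all genes tested. In that fit 21.5% of all genes were called, 10.6% lower and 10.9% higher. The median log2 ratio of the 10 genes was -0.11, against 0.0013 over all genes tested. It was -0.22 where Th3 was in Cy5 and -0.015 where it was in Cy3, and the corresponding medians over all genes were 0.017 and -0.0091. All 10 genes were well above background in both dyes on all 4 arrays, and no spot was saturated. In whole-kidney RNA, fewer cells of a type and less RNA per cell cannot be told apart.

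**Figure D1:**
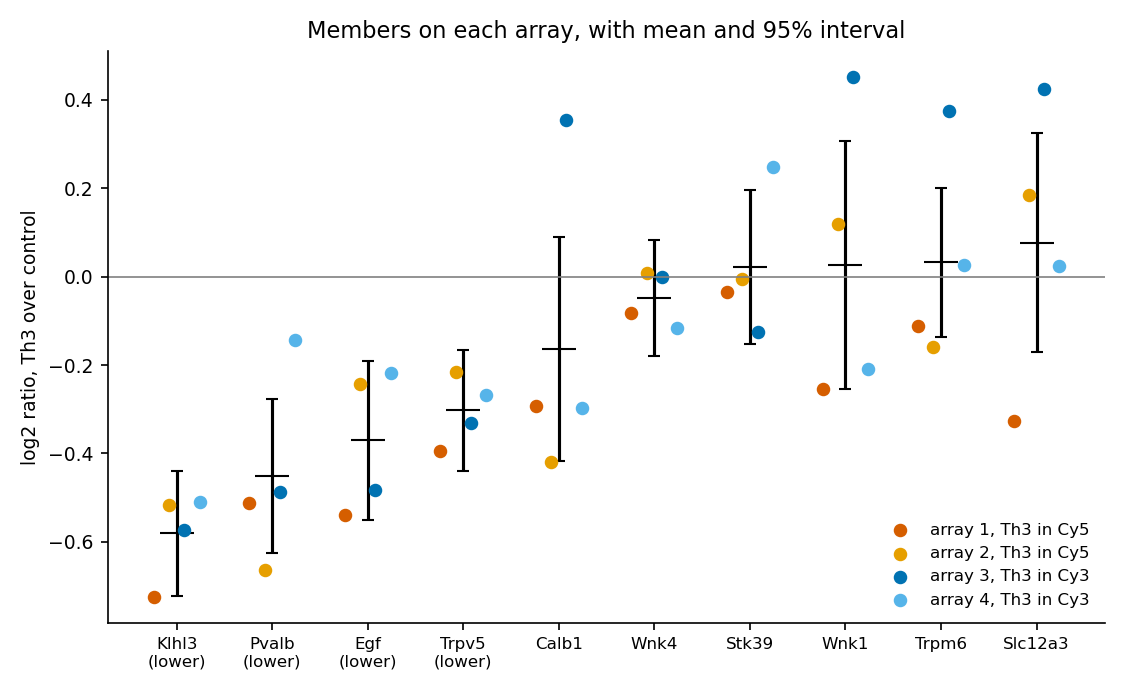
Log2 ratio of Th3 over control (vertical axis) for the 10 genes (horizontal axis, ordered by mean), 1 point per array, with the fitted mean as a black dash and its 95% interval as a bar. All 4 points lie below 0 for Klhl3, Pvalb, Egf and Trpv5, which are marked lower, and the points of the other genes lie on both sides of 0.

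Klhl3, the adaptor that targets WNK kinases for degradation, showed the deepest fall of the 10. Its log2 normalised intensity was 9.11, 9.16, 9.07 and 8.86 in the control samples of arrays 1 to 4, and 8.39, 8.64, 8.49 and 8.35 in the Th3 samples of the same arrays. Every Th3 sample was below every control sample, a separation seen downward in 9.62% of all genes tested. The log2 ratios on arrays 1 to 4 were -0.72, -0.52, -0.57 and -0.51. Their mean was -0.58 ± 0.10 (SD, n = 4), a level 66.9% of control, with a 95% interval of -0.72 to -0.44 and an adjusted p of 0.00239. The fall was present in both dye orientations, with means of -0.62 where Th3 was in Cy5 and -0.54 where it was in Cy3. In the authors' deposited table the same probe is listed at a fold of -1.603, where a minus sign marks lower in Th3, with an adjusted p of 0.0032.

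The kinases upstream of the cotransporter gave no call. Wnk1, which phosphorylates and activates SPAK, had log2 ratios of -0.26, 0.12, 0.45 and -0.21 at its brightest probe, and control levels of 11.14 to 11.71 overlapped Th3 levels of 11.15 to 11.59. Its mean log2 ratio was 0.03 ± 0.33 (SD, n = 4), with a 95% interval of -0.25 to 0.31 and an adjusted p of 0.899. Wnk4, the WNK kinase best known in this segment, varied less. Its log2 levels were 12.47, 12.17, 12.29 and 12.27 in control and 12.39, 12.18, 12.29 and 12.16 in Th3, and the groups overlapped. Its mean log2 ratio was -0.05 ± 0.061 (SD, n = 4), with a 95% interval of -0.18 to 0.083 and an adjusted p of 0.575. The probe for Wnk4 covers 167 bases of genome at chr11:101092974-101093140, longer than its own 60 bases, so its placement in the genome is split.

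Stk39, the SPAK kinase between the WNK kinases and Slc12a3, had log2 ratios of -0.034, -0.0045, -0.13 and 0.25. Control levels of 10.21 to 10.39 overlapped Th3 levels of 10.23 to 10.45. The mean log2 ratio was 0.02 ± 0.16 (SD, n = 4), with a 95% interval of -0.15 to 0.20 and an adjusted p of 0.868. For Wnk1, Wnk4 and Stk39 the intervals do not reach the fitted value of Klhl3, whereas smaller changes in either direction lie within them.

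Wnk1 was the only one of the 10 with several usable probes, 6 of them, all on the minus strand of chromosome 6. The gene also has a background of interest here, since an internal promoter in kidney gives a short transcript that lacks the kinase domain and is made mainly in the distal convoluted tubule. Which of the probes detect that transcript was not determined. The starts of 3 probes are shown because they mark the 5′ end, a split placement and the 3′ end of the probed stretch.
Wnk1 5′-most probe, chr6:120003253-120003312: cacccttttcccttttcattcataaatccg
Wnk1 split probe, chr6:119936671-119938420: ttgaaggatgtatccgacaaaacaaagatg
Wnk1 3′-most probe, chr6:119890412-119890471: gtacttctatattagagctaatactctcac
The split probe spans 1750 bases of genome with 60 bases of sequence. Ordered from the 5′-most probe, at 0, 66.58, 83.3, 89.1, 91.18 and 112.8 kb, the mean log2 ratios were -0.14, -0.021, -0.088, -0.083, -0.072 and 0.03. None of the 6 passed the test over all probes. The nearest was the 5′-most one, with a 95% interval of -0.27 to -0.0054 and an adjusted p of 0.134. The 3′-most probe is the brightest and stands for the gene above. On array 3 it read 0.45, while 4 of the other probes read between -0.33 and -0.27 and the split probe read -0.064 on the same array.

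**Figure D2:**
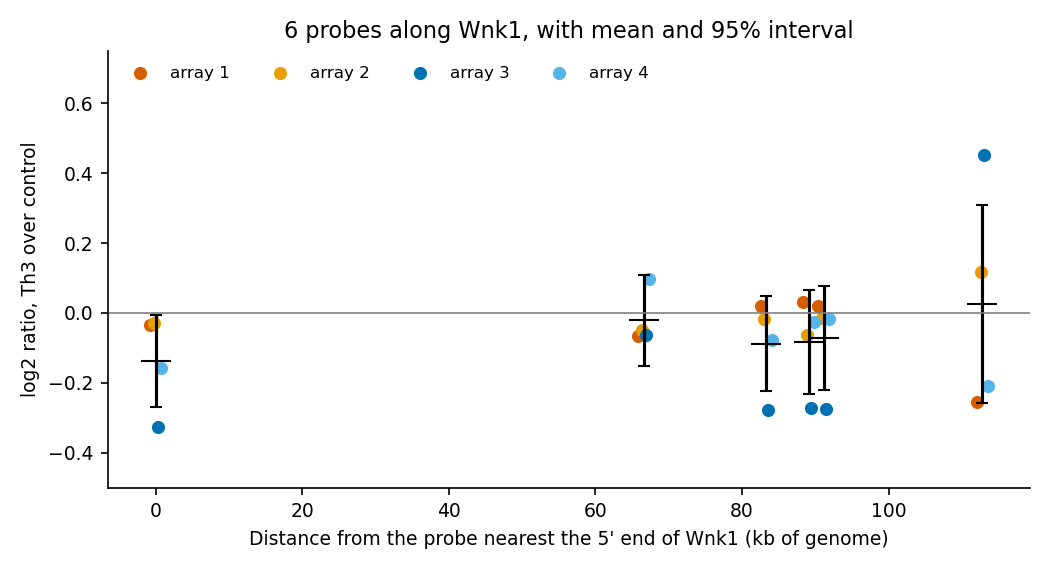
Log2 ratio of Th3 over control (vertical axis) at 6 Wnk1 probes, placed by their distance in kb from the probe nearest the 5′ end (horizontal axis), with 1 point per array, slightly offset, and the mean with its 95% interval in black. The points of array 3 are the lowest at 4 of the probes and the highest at the 3′-most probe, at 0.45.

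Slc12a3, the transporter at the end of the pathway and the defining gene of the segment, did not change beyond its spread. Its log2 levels were 13.12, 12.52, 12.53 and 12.52 in control and 12.79, 12.71, 12.95 and 12.54 in Th3. The control sample of array 1 was the highest of all 8 and the other 3 control samples were the lowest, so the groups overlapped. The log2 ratios on arrays 1 to 4 were -0.33, 0.19, 0.43 and 0.024. Their mean was 0.08 ± 0.32 (SD, n = 4), with a 95% interval of -0.17 to 0.33 and an adjusted p of 0.64. That interval, too, holds smaller rises and falls than the fitted value of Klhl3.

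Pvalb, a cytosolic calcium-binding protein that marks the early part of the segment, fell. Its log2 level was 9.32, 9.54, 9.13 and 8.82 in the control samples of arrays 1 to 4, and 8.80, 8.87, 8.64 and 8.67 in the Th3 samples. Th3 was lower on every array, as in 17.4% of all genes, but the control sample of array 4 lay below the Th3 sample of array 2, so the groups overlapped. The log2 ratios were -0.51, -0.66, -0.49 and -0.14. Their mean was -0.45 ± 0.22 (SD, n = 4), a level 73.1% of control, with a 95% interval of -0.63 to -0.28 and an adjusted p of 0.00917. In the authors' deposited table Pvalb is listed at a fold of -1.449 with an adjusted p of 0.0326. Fast skeletal muscle also makes Pvalb. Of 7 muscle markers, Ckm, Myh4 and Tnnt3 were not well above background, and none of the 4 tested passed. The mean log2 level of those 4 ran from 7.23 to 7.52 in control and from 7.29 to 7.34 in Th3. Among them Myh1 had a log2 ratio of -0.50 ± 0.75 (SD, n = 4, adjusted p = 0.0971). The other markers tested, Acta1, Mylpf and Actn3, did not fall, with log2 ratios of 0.0006, 0.15 and 0.19. The part of muscle in the Pvalb value was not tested.

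Egf, the precursor of epidermal growth factor, is made in the distal convoluted tubule and the thick ascending limb and promotes magnesium uptake through Trpm6. Its log2 levels were 15.68, 15.45, 15.65 and 15.51 in control and 15.14, 15.21, 15.17 and 15.29 in Th3. No Th3 sample reached the lowest control sample, a separation seen downward in 9.62% of all genes tested. The log2 ratios on arrays 1 to 4 were -0.54, -0.24, -0.48 and -0.22. Their mean was -0.37 ± 0.16 (SD, n = 4), a level 77.4% of control, with a 95% interval of -0.55 to -0.19 and an adjusted p of 0.0181. The Egf probe was printed at 10 spots on each array, of which 9 or 10 were used, and the SD over those spots was 0.029 to 0.040, so the spread between arrays was several times that between spots. The call was lost with Agilent's processed signals (adjusted p = 0.052), with median centring in place of loess (adjusted p = 0.0942), with array pairs as a random block (adjusted p = 0.0535) and without array 3 (adjusted p = 0.0626). In the authors' deposited table the 10 Egf spots are listed at folds of -1.309 to -1.277 with adjusted p from 0.0743 to 0.102.

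Trpv5, the apical calcium channel of the late distal convoluted and connecting tubule, fell by a similar amount on each array. Its log2 level was 8.06, 8.03, 8.04 and 7.87 in control and 7.66, 7.81, 7.71 and 7.61 in Th3, without overlap. Such a downward separation was seen in 9.62% of all genes tested. The log2 ratios were -0.39, -0.22, -0.33 and -0.27. Their mean was -0.30 ± 0.077 (SD, n = 4), a level 81.1% of control, with a 95% interval of -0.44 to -0.16 and an adjusted p of 0.0148. Without array 1 the adjusted p was 0.0707. The size of the fall moved with the background correction, with a log2 ratio of -0.39 at a normexp offset of 0 and -0.49 with Agilent's processed signals. In the authors' deposited table it is listed at a fold of -1.346 with an adjusted p of 0.0131.

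Calb1, calbindin-D28k, the protein that carries calcium across the cell from Trpv5 to the basolateral side, did not pass. Its log2 levels in control were 15.44 and 15.39 on arrays 1 and 2, and 14.61 and 14.68 on arrays 3 and 4. In Th3 they were 15.15, 14.97, 14.96 and 14.38. The control samples thus formed a high and a low pair that coincide with the dye they carried, and dye and sample cannot be told apart within them. The log2 ratios were -0.29, -0.42, 0.36 and -0.30, lower in Th3 on arrays 1, 2 and 4 and higher on array 3. Their mean was -0.16 ± 0.35 (SD, n = 4), with a 95% interval of -0.42 to 0.089 and an adjusted p of 0.313. On array 3 the 8 usable spots of the probe ranged from 0.27 to 0.44, so the high value was shared by all of them. The mean rested on single arrays: it was -0.33 without array 3 (adjusted p = 0.0301) and -0.00067 without array 4 (adjusted p = 0.996). With median centring in place of loess it was -0.061 (adjusted p = 0.742).

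Trpm6, the apical magnesium channel, had log2 levels of 7.43, 7.59, 7.17 and 7.25 in control and 7.32, 7.44, 7.54 and 7.28 in Th3, and the groups overlapped. The log2 ratios were -0.11, -0.16, 0.37 and 0.027. Their mean was 0.03 ± 0.24 (SD, n = 4), with a 95% interval of -0.14 to 0.20 and an adjusted p of 0.78. The signal of another Trpm6 probe never rose well above background. Array 3 gave the highest of the 4 ratios for Calb1, Trpm6, Slc12a3 and the brightest Wnk1 probe. For the genes that fell, its ratio lay within the range of the other arrays.

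**Figure D3:**
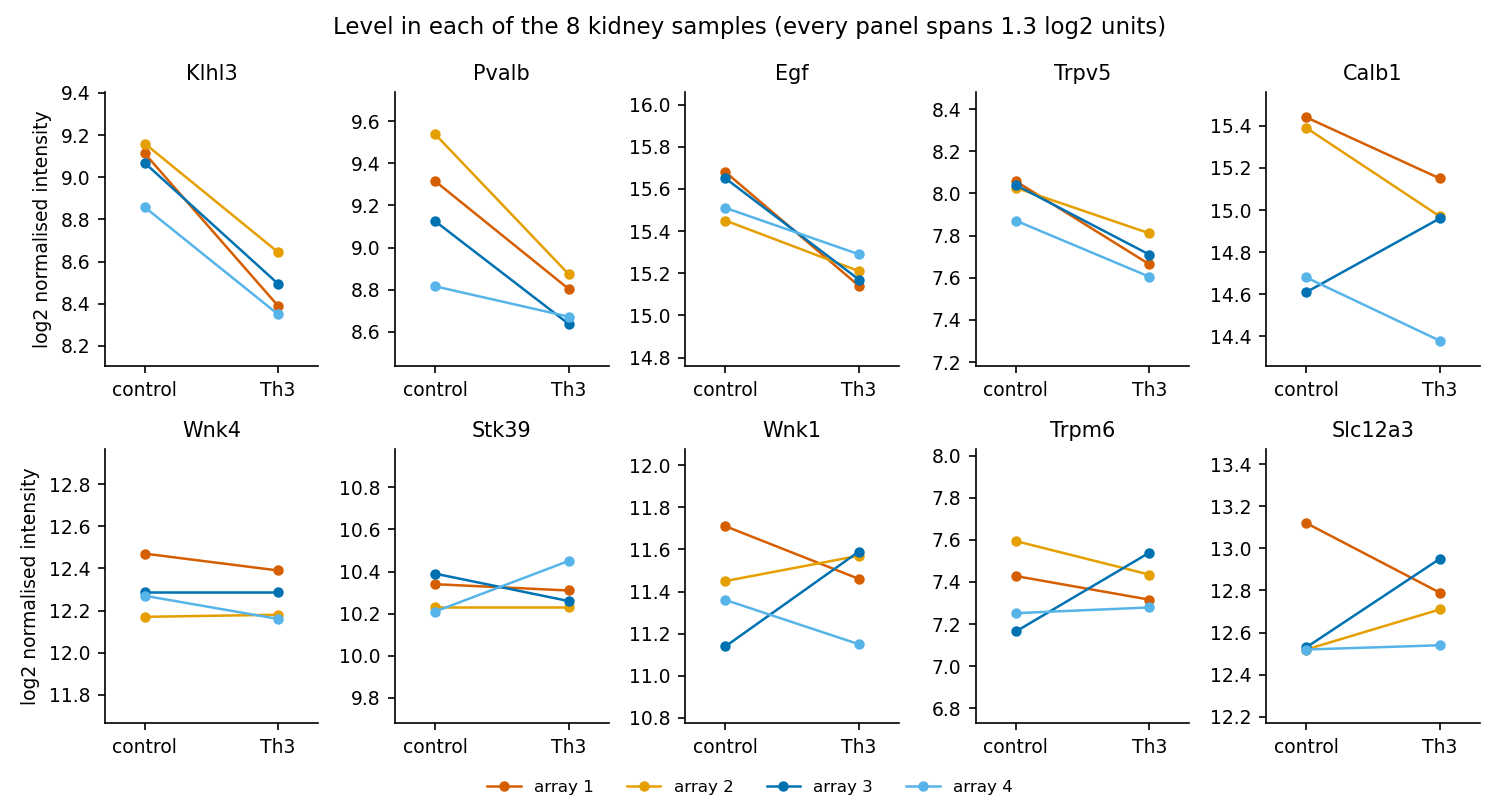
Log2 normalised intensity (vertical axis, each panel spanning the same width of log2 units) of the 10 genes in the control and the Th3 sample (horizontal axis), with a line joining the samples of 1 array. All lines descend for Klhl3, Pvalb, Egf and Trpv5, and the line of array 3 rises against the others for Calb1, from 14.61 to 14.96.

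Because 4 of the genes fell, their promoters were read for short motifs in the RefSeq promoter table of build GRCm38.p6, in 300-base windows that end 50 bases after the transcript start. The motifs were ACGTG, the core of the hypoxia-response element, AGGTCA, a nuclear receptor half-site, TATAAA, the TATA box, CCAAT and GGGCGG, the GC box, each on both strands. They occur in 19.6%, 16.3%, 13.6%, 37.4% and 35.7% of the 32851 promoters in the table. The windows of Klhl3, Trpv5 and Egf are shown as examples with none, a TATA box and an ACGTG match, in capitals where a motif matched.
Klhl3, minus strand of chr13:58113598-58113897: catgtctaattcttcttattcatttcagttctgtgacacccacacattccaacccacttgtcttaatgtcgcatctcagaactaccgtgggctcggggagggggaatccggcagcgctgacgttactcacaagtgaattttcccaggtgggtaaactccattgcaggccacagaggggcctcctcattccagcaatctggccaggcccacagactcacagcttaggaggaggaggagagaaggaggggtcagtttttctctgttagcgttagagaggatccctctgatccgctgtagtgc
Trpv5, minus strand of chr6:41680674-41680973: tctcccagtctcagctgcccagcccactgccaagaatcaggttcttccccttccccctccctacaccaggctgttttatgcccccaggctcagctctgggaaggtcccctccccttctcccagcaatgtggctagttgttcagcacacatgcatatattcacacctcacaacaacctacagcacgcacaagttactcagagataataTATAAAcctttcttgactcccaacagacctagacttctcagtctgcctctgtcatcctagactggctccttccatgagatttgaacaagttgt
Egf, minus strand of chr3:129725037-129725336: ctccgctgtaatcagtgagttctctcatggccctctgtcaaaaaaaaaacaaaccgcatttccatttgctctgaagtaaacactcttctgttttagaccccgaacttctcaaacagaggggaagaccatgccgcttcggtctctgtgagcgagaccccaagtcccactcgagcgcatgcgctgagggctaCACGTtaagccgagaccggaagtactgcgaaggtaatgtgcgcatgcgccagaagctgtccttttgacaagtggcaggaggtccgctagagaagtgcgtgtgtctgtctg
Both Pvalb windows held none of the 5 motifs. Of the pair of Egf windows, ACGTG was found in the one shown, on the opposite strand, and none of the 5 in the other. The other window, at chr3:129755273-129755572 on the same minus strand, lies upstream of the one shown. The Slc12a3 window, of a gene that was not called, held 1 TATAAA, 1 CCAAT and 2 GGGCGG. No motif of the 5 was found in the promoters of all 4 genes that fell, which describes these letters in these windows only.

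The other genes of the pathway were read from 4 lists. Of 47 tested, 6 rose, 9 fell and 32 did not pass, with a median log2 ratio of -0.027, beside 10.9% of all genes called higher and 10.6% called lower. By list, 10 of the calls were among the 20 genes tested of calcium and magnesium handling. Among the 14 genes tested of WNK signalling there was 1 call. The difference between lists was not tested.

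**Figure D4:**
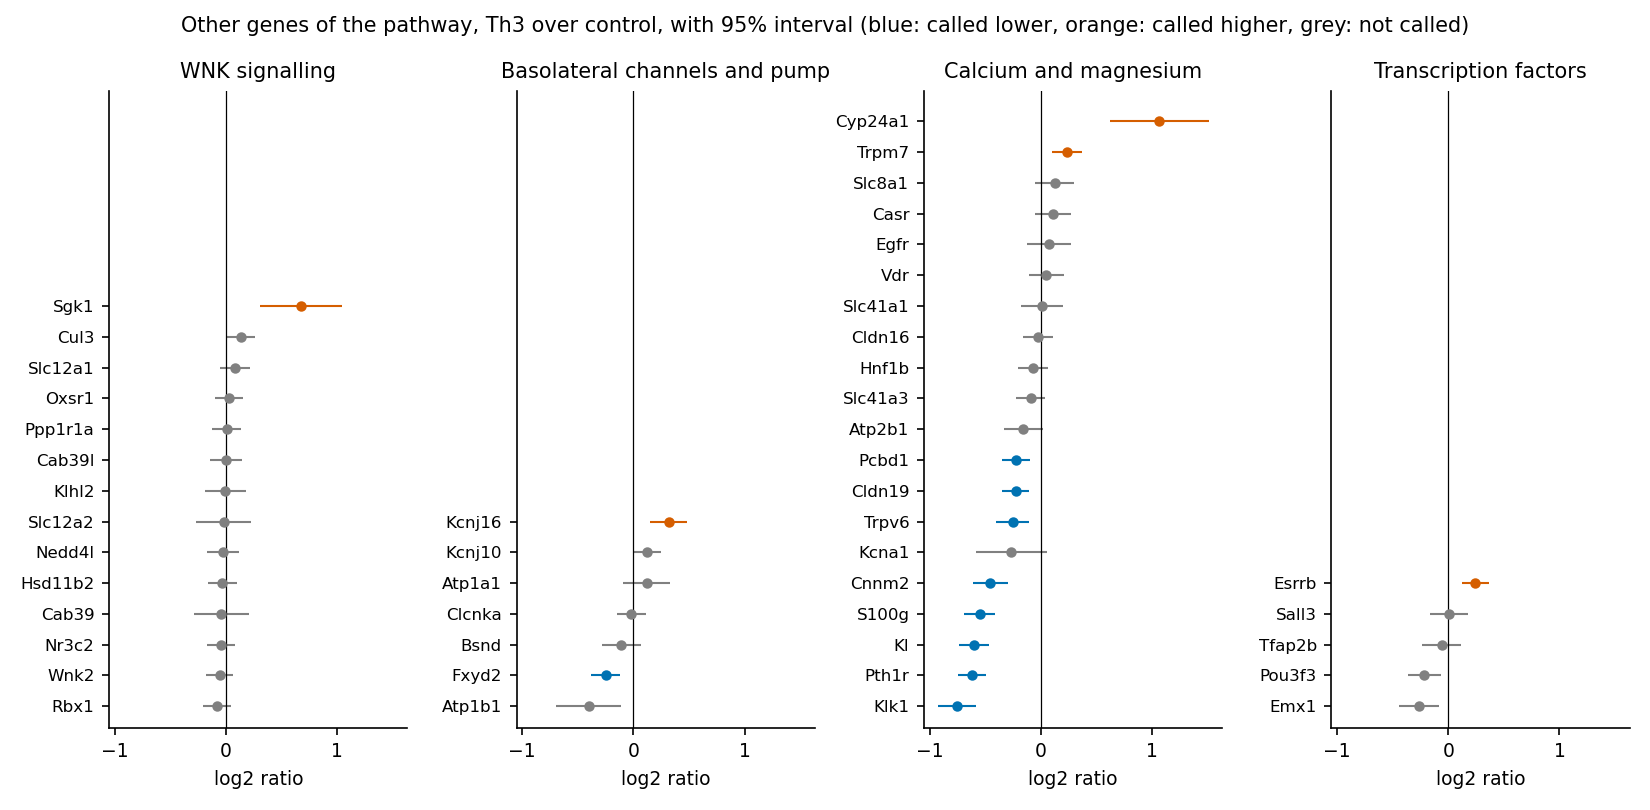
Log2 ratio of Th3 over control (horizontal axis) for the genes of 4 pathway lists that are reported here (1 row per gene, ordered within each list), as the fitted mean with its 95% interval, blue where called lower, orange where called higher and grey where not called. The calcium and magnesium list, with 20 genes tested, holds 8 of the 9 genes called lower, and 13 of the 14 WNK signalling genes are grey.

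Among WNK signalling genes, 1 of 14 tested rose and none fell, beside 10.9% higher and 10.6% lower over all genes. The median log2 ratio was -0.012. The one that rose was Sgk1, the aldosterone-induced kinase that restrains the ubiquitin ligase Nedd4-2. Its log2 ratios were 0.86, 0.14, 0.47 and 1.23, with a mean of 0.67 ± 0.48 (SD, n = 4) and an adjusted p of 0.0266, and its Th3 levels of 13.51 to 14.67 overlapped control levels of 12.65 to 13.67. Its call was lost under 4 of the 17 alternative settings, among them leaving out array 4 (log2 0.48, adjusted p = 0.0839). Nr3c2, the mineralocorticoid receptor that induces it, was at -0.05 ± 0.043 (SD, n = 4; adjusted p = 0.586). The signal of Nr3c2 was low, with control levels of 6.692 to 6.905. Its log2 ratio moved with the background correction, to -0.27 with Agilent's processed signals (adjusted p = 0.164). Cul3, the cullin that works with Klhl3, was at 0.14 ± 0.044 (SD, n = 4). Its 4 Th3 samples lay above all 4 control samples, a separation seen upward in 11.4% of all genes tested. Cul3 missed the threshold at an adjusted p of 0.116, and of the 17 settings only separate channels called it (adjusted p = 0.0315). Oxsr1, the kinase closest to SPAK, was at 0.03 ± 0.079 (SD, n = 4; adjusted p = 0.769). The cotransporters that SPAK and its relative also serve, Slc12a1 of the thick ascending limb and the widely expressed Slc12a2, were at 0.08 ± 0.27 and -0.02 ± 0.28 (SD, n = 4 each), with adjusted p of 0.371 and 0.915. Wnk3 was not well above background and was not tested.

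Among the basolateral channels and pump subunits that complete salt transport, calls were made in both directions. Kcnj16, a subunit of the basolateral potassium channel, rose by 0.32 ± 0.22 on the log2 scale (SD, n = 4; adjusted p = 0.0237), and 2 of its 3 probes were called. Fxyd2, the gamma subunit of the sodium pump, whose mutation causes magnesium loss in humans, was at -0.25 ± 0.082 (SD, n = 4; adjusted p = 0.0232), with Th3 levels of 15.20 to 15.22 and control levels of 15.37 to 15.56. The calls of Kcnj16 and Fxyd2 were lost under 4 and 7 of the 17 settings. Those include leaving out array 1 or 3 for Kcnj16 (adjusted p of 0.0744 and 0.0729) and array 1, 2 or 3 for Fxyd2 (adjusted p of 0.0523, 0.119 and 0.0656). With median centring Fxyd2 was at -0.16 (adjusted p = 0.199).

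Of 20 genes of calcium and magnesium handling tested, 8 fell, 2 rose and 10 were not called, with a median log2 ratio of -0.12, beside shares over all genes of 10.6% lower and 10.9% higher. The deepest fall was in Klk1, tissue kallikrein of the connecting tubule, at -0.76 ± 0.20 (SD, n = 4; adjusted p = 0.00206). Klk1 belongs to a mouse family of near-identical kallikrein genes, so its probe may read relatives too. Pth1r, the parathyroid hormone receptor, was at -0.62 ± 0.11 (SD, n = 4; adjusted p = 0.00165), with Th3 levels of 13.14 to 13.20 against control levels of 13.68 to 13.90, and both of its probes were called lower.

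Kl, which encodes the co-receptor for the phosphate hormone FGF23 and promotes Trpv5 at the cell surface, was at -0.60 ± 0.12 (SD, n = 4; adjusted p = 0.00205) at its brighter probe, with no overlap. Its other probe was at 0.082 and was not called, so the probes of Kl disagree, and the mean over them was -0.26 (adjusted p = 0.0189). S100g, calbindin-D9k, the small partner of Calb1, was at -0.55 ± 0.12 (SD, n = 4, adjusted p = 0.00273). Its Th3 levels of 15.29 to 15.50 lay below control levels of 15.85 to 16.06. Such a downward separation, here of Kl and S100g, was seen in 9.62% of all genes tested. Trpv6, the close relative of Trpv5, was at -0.25 ± 0.15 (SD, n = 4; adjusted p = 0.0337), a call lost under 5 of the 17 settings, among them leaving out array 1, 3 or 4 (adjusted p of 0.185, 0.0537 and 0.0942), and its log2 ratio was -0.49 with Agilent's processed signals.

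The genes of this list that rose were Cyp24a1 and Trpm7. Cyp24a1, the enzyme that degrades active vitamin D, had log2 ratios of 1.49, 1.62, 1.22 and -0.064. Its mean was 1.07 ± 0.77 (SD, n = 4; adjusted p = 0.0115), so the rise came from 3 of the arrays and was not seen on array 4. With array pairs as a random block its adjusted p was 0.0697. Trpm7, the ubiquitous channel kinase that pairs with Trpm6, rose by 0.24 ± 0.079 on the log2 scale (SD, n = 4; adjusted p = 0.0316), a call lost under 7 settings, among them leaving out array 2, 3 or 4 (adjusted p of 0.19, 0.0669 and 0.0765). Of 5 transcription factors of the distal tubule, Esrrb rose by 0.24 ± 0.082 (SD, n = 4, adjusted p = 0.0207) at 1 of its 2 probes, and 4 were not called. Over all genes, 10.9% were called higher. The call of Esrrb was lost without array 1 or array 2 (adjusted p of 0.079 and 0.0955), with array pairs as a random block (adjusted p = 0.0739) and with the mean of its probes (log2 0.14, adjusted p = 0.0754).

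The neighbouring segments were read through marker lists, and the whole kidney showed the markers of each. Over all genes, 10.9% were called higher and 10.6% lower, so 1 call in a list of 7 or 8 is close to these shares. Of 6 thick ascending limb markers, Slc12a1 among them, none was called, whereas Egf, also made in that segment, fell. The mean log2 level of the list ran from 13.55 to 13.75 in control and from 13.56 to 13.82 in Th3. Of 8 principal cell markers, Aqp3 rose by 0.69 ± 0.15 on the log2 scale (SD, n = 4; adjusted p = 0.00132) and 7 were not called. Of 7 intercalated cell markers, Rhbg was lower at -0.28 ± 0.069 (SD, n = 4; adjusted p = 0.0144) and 6 were not called. Its call was lost without array 1 (adjusted p = 0.0604), with median centring (adjusted p = 0.114) and with array pairs as a random block (adjusted p = 0.0513).

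Of 10 proximal tubule markers 6 fell, 1 rose and 3 were not called, beside 10.6% lower and 10.9% higher over all genes, and the median log2 ratio was -0.24. The mean log2 level of the list ran from 13.42 to 13.65 in Th3 and from 13.68 to 13.88 in control, without overlap. Slc22a6, the organic anion transporter, was at -0.80 ± 0.11 (SD, n = 4; adjusted p = 0.00106), with the related Slc22a8 at -0.47 ± 0.24 (SD, n = 4; adjusted p = 0.00442). Slc34a1, the phosphate transporter, was at -0.44 ± 0.26 (SD, n = 4; adjusted p = 0.00379) at its brighter probe, and at 0.18, not called, at the other; of the 3 Slc22a8 probes 2 were called lower and the remaining one was at 0.16. With the mean of a gene's probes both calls were lost, with Slc34a1 at -0.13 (adjusted p = 0.113) and Slc22a8 at -0.19 (adjusted p = 0.0725). Slc4a4, the bicarbonate transporter, rose by 0.45 ± 0.26 on the log2 scale (SD, n = 4; adjusted p = 0.0147). With array pairs as a random block the calls of Slc4a4 and Slc34a1 were lost (adjusted p of 0.0586 and 0.0539). Pth1r and Kl are also made in the proximal tubule. The part of the proximal tubule in the falls of Pth1r and Kl was not tested, nor was its part in those of the 4 distal genes. Of 7 adrenal markers, 6 were on the array and 2 were tested, with neither called. Those on the array but not tested were not well above background.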

How the data were processed

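Kidney RNA of 4 Th3 and 4 control samples was hybridised in Th3 and control pairs to 4 two-colour Agilent arrays. Total RNA was amplified from an oligo-dT primer and labelled as cRNA, per the labels. The deposited scanner files hold spot and background intensities, not normalized, from Feature Extraction 9.5.3.1, per the file headers. Processed intensities in the same files are background-subtracted and dye-normalized, and a log10 ratio of Cy5 over Cy3 is given, per the file headers. A combined table deposited by the authors gives log2 ratios of Th3 over control, a signed fold, which is a score with no value between -1 and 1, and an adjusted p-value; how these were made is not stated in the labels or headers. The direction of the authors' log2 ratios was checked against the scanner ratios (correlation over probes 0.732 to 0.805).

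Spot intensities were corrected with normexp (offset 50) and loess (span 0.3, 4 iterations) in limma 3.58.1 under R 4.3.3, with control and outlier spots at weight 0. Of 41174 probes, 26434 were kept: well above background in the Th3 or the control channel on all 4 arrays, with a value on at least 3. Names came through a RefSeq table used for names only, and each gene was represented by its brightest kept probe. Ratios were fitted in limma with a dye and a Th3 term (2 residual and 4.52 prior degrees of freedom), Benjamini-Hochberg adjusted over 17628 genes and called under 0.05. Levels are loess and Aquantile normalised channel intensities on the log2 scale. The ± values are SDs over arrays, and the small number of arrays limits the precision. The code was tested on simulated data.

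Genes named were the 10 genes with their probes, up to 3 called genes with the largest change in each direction of each list, and Slc12a1, Slc12a2, Oxsr1, Cul3, Wnk3, Trpv6, S100g, Nr3c2 and Sgk1. Myh1, Acta1, Mylpf, Actn3, Ckm, Myh4 and Tnnt3 were named after their values were seen. A few results that this rule covers are not reported here. The 10 genes and the lists were chosen with earlier results of these data known. The alternatives changed the background correction, normalization, filter, outliers, dye term, blocking, channels, weights, variances, probe rule, source of the ratios and arrays used.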

Additional observations from a re-analysis of the deposited data

Results flagged for a closer look

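Dixon's test for a sample far from the others was applied to the 4 array ratios of each of 34 named genes, and it marked 2; chance alone marks about 5% of groups. The Calb1 log2 ratio on array 3 was 0.355, while the other arrays lay between -0.42 and -0.29, and the usable spots of that array ranged from 0.27 to 0.44. The Slc4a4 log2 ratio on array 4 was 0.838, while the other arrays lay between 0.31 and 0.34. Neither array was left out of the values above.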

How the results depend on the processing

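Between 3 and 4 of the 10 genes were called lower, and none higher, under each of the 17 alternatives. Klhl3 (log2 -0.72 to -0.53, adjusted p 6.12e-05 to 0.0135) and Pvalb (-0.56 to -0.37, adjusted p 0.00168 to 0.0447) kept direction and call in all of them. Trpv5 (-0.49 to -0.26) lost its call only without array 1 (adjusted p = 0.0707). Egf lost its call with Agilent's processed signals, median centring, array pairs as a random block and without array 3 (adjusted p 0.0520 to 0.0942). Without array 3 Calb1 was called lower instead (log2 -0.327, adjusted p = 0.0301), so the count there stayed at 4 with a different gene. Over all genes, 1927 were higher and 1866 lower. These counts were 1102 and 888 without the dye term, 645 and 554 with array pairs as a random block, 2982 and 2752 with separate channels, and 1938 and 1144 with median centring, where 62.9% of calls were higher against 50.8%. Genes that were not called changed sign in places. With the mean of a gene's probes, Wnk1 was at -0.0623, Slc12a1 at -0.0102 and Oxsr1 at -0.0143. With median centring Wnk4 was at 0.0279 and Slc12a2 at 0.00944, and with the authors' deposited log2 ratios Trpm6 was at -0.0243. Leaving out 1 array at a time gave Calb1 from -0.327 to -0.000665, Slc12a3 from -0.0507 to 0.205, Wnk1 from -0.139 to 0.191, Stk39 from -0.072 to 0.114, Trpm6 from -0.0544 to 0.119, Slc12a2 from -0.137 to 0.0975 and Oxsr1 from -0.00441 to 0.0563. The causes were not tested. Each ratio already pairs a Th3 with a control sample on its array, and no further pairing was applied. All arrays share 1 slide, so slide could not be tested.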
